A study of Danio rerio with 12 samples.

Results

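Zebrafish embryos homozygous for a knock-in at etv2 were compared with heterozygous embryos at 24 hours post fertilization (hpf), by RNA sequencing of whole embryos. Homozygous embryos carried etv2^Gt(2A-Gal4)ci32 on both chromosomes and heterozygous embryos on 1. The allele joins a 2A-Gal4 cassette to the gene, so that cells using etv2 switch on the UAS:GFP transgene that the crossed carriers also held. Both groups therefore make Gal4, and neither is wild type. Per the labels, carriers were incrossed, and embryos were raised at 28 °C to 24 hpf, told apart by how GFP was distributed, and frozen in batches of 15 to 20. Each batch gave 1 library, with 3 homozygous and 3 heterozygous libraries. All gene rows that were not equal in every library were taken, 25280 of the 31172 in the table, and the 19175 of them with a median of 16 normalized units or above were tested. Another 6 libraries of the same genotypes, from 15-somite embryos raised at 24 °C, were used for 1 comparison at the end. Of their 3 homozygous columns, 2 carry the same name, so their genotype and stage are known but not which batch each is. They hold different values, being equal in 4.89% of gene rows, and were used as separate libraries.

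Etv2 is an ETS-family transcription factor that starts the endothelial programme in lateral mesoderm. In zebrafish the same mesoderm gives rise to vessels and to the first leukocytes and red cells, and loss of etv2 is known to leave embryos without normal vessels and with few primitive leukocytes. By 24 hpf a normal embryo has an axial artery and vein with blood beginning to flow, and sprouting vessels between the somites. Endothelial cells are a small share of such an embryo, so most RNA in each library came from other tissues.

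The deposited values are log2 normalized expression with each gene's median over the 6 libraries already subtracted, so they hold no absolute level. Below, a gene's level in each library is given as a percentage of the geometric mean of the 3 heterozygous libraries, and log2 differences, with their standard error (SE), subtract the heterozygous from the homozygous mean. Total depth is unknown because no counts were analysed, and the relative depth of the 6 libraries ran from 0.961 to 1.06. The first principal component held 28.9% of the variance and separated the genotypes. Of the listed genes, 53 of 56 skeletal muscle, 39 of 43 neural and 37 of 41 epidermal genes were above the level minimum for testing. So were 75.9% of all rows not equal in every library. The other 4 neural genes and 2 of the other epidermal genes were not found by name. These shares therefore do not test the whole-embryo label. Because the samples are bulk RNA, fewer cells of a type cannot be told apart from less RNA per cell in anything that follows.

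The targeted gene itself was measured first. The level of etv2 was 13.8%, 7.40% and 14% in the homozygous libraries and 101%, 99.2% and 99.6% in the heterozygous libraries. The groups did not overlap, the heterozygous libraries were nearly equal, and homozygous replicate 2 was the lowest. The difference was -3.15 (SE 0.26, adjusted p = 0.00628), or 8.88-fold lower. The adjusted p was 0.0685, 0.0583 and 0.0627 without heterozygous replicate 1, 2 or 3. Which part of the transcript the remaining reads came from relative to the inserted cassette is not stated in the sources used here.

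Across all genes tested, few differed and almost all of those were lower. At an adjusted p below 0.05, 46 genes fell in homozygotes, which is 0.24% of those tested, and 4 rose, which is 0.0209%. The falls were large: 42 exceeded 2-fold, 19 exceeded 4-fold and 9 exceeded 8-fold, with a median of -1.67 and a range from -6.39 to -0.63. Of the 46, 26 belonged to 5 lists of endothelial genes, 3 to 2 lists of leukocyte genes and 17 to no list. The lists were chosen with earlier results of these data known. List counts and shares, here and below, are therefore descriptions and no independent test. Before adjustment (p below 0.05 by limma), 3.9% of all genes tested were lower and 3.13% higher, which is the background for every list below. The median difference over all genes tested was 0.00, and 49.3% of them were below 0. The homozygous libraries spread more widely than the heterozygous ones in 37 of the 46 genes that fell, against 53.8% of all genes tested. These genes were picked for low homozygous values, and low genes were measured less precisely, with a median SE of 0.21 in the lower level class tested and 0.07 in the higher. Whether homozygous batches varied more was not tested.

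With 3 libraries a group, the calls depended on each library. The groups did not overlap for any of the 50 genes, against 12.6% of all genes tested (6.4% lower and 6.24% higher), so leaving 1 library out could not turn a direction, but it did end calls. The count of falls and rises was 20 and 0 without homozygous replicate 1, 31 and 7 without homozygous replicate 2, and 19 and 1 without homozygous replicate 3. It was 2 and 0 without heterozygous replicate 1, 5 and 0 without heterozygous replicate 2, and 13 and 1 without heterozygous replicate 3. The genes stab2 and vsg1 passed in all 6 of these fits, and 15 of the 50 passed in none. With 1 prior spread for all level classes, 34 of the 50 kept their call, and those lost were mfap4, srgn, il13ra2, slc22a7b, CABZ01018247.1, CD93, micall2a, col8a2, ESM1, fli1b, aqp1a.1, aplnrb, lmo2, cry1a, lonrf1l and hbaa1 (adjusted p from 0.0518 to 0.125). In a single fit over all 12 libraries, flt1, abcb9, INPP5D, myo1f and aqp1a.1 lost theirs (0.0525 to 0.828).

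**Figure D1:**
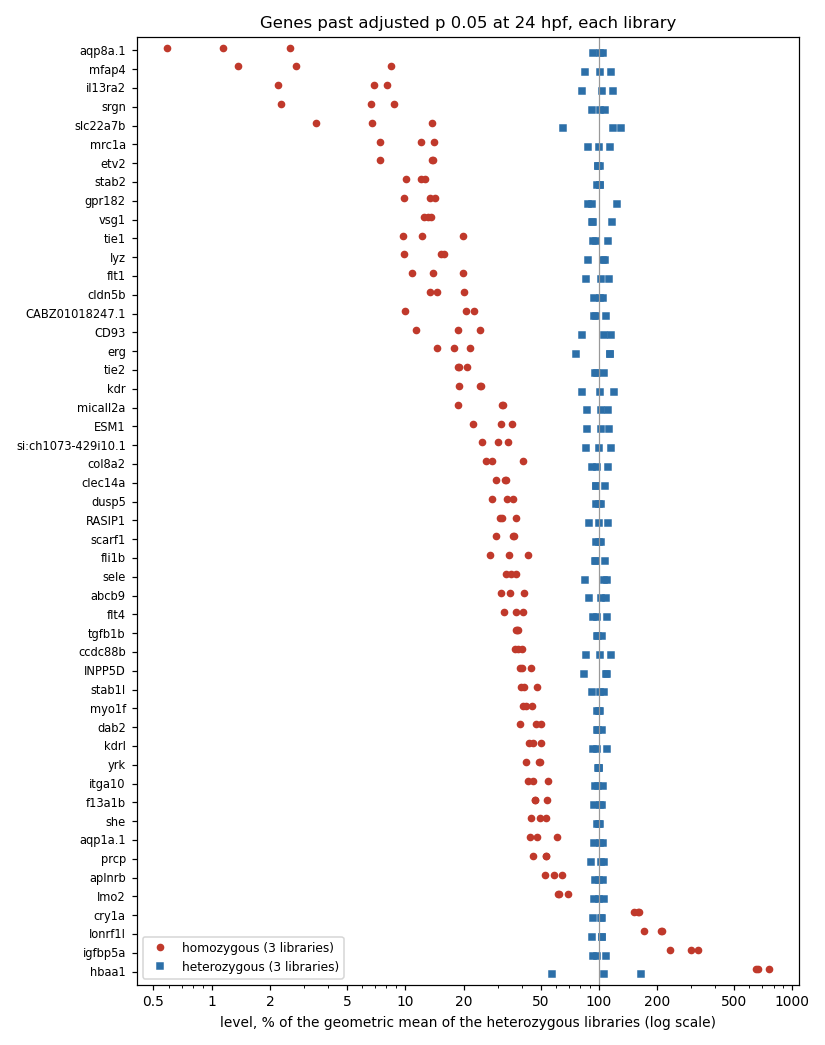
Level of each of the 50 genes past an adjusted p of 0.05 at 24 hpf, in each homozygous and heterozygous library, as a percentage of the geometric mean of the heterozygous libraries (log axis). Each point is 1 library; the homozygous points lie below 100% for the 46 genes that fell and above it for the 4 that rose, and for no gene do the groups overlap.

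Receptors that carry vascular growth signals into endothelial cells were among the genes that fell. They were part of a wider list of endothelial receptors of several kinds. Of its 22 genes tested, 7 fell and none rose, and the list's median was -0.28. Before adjustment, 12 were lower (p below 0.05), against 3.9% of all genes tested. The 3 VEGF receptor genes of this list, kdr, kdrl and flt1, all fell, and a further one, flt4, is described with the venous genes. The level of flt1, whose product binds VEGF and limits its action, was 13.9%, 19.8% and 10.8% in homozygous and 113%, 102% and 86.3% in heterozygous libraries, a difference of -2.80 (SE 0.22, adjusted p = 0.00649). For kdr it was 18.9%, 24.4% and 24.7% in homozygous and 120%, 82.0% and 101% in heterozygous libraries (-2.15, SE 0.21, adjusted p = 0.0106). For kdrl, a close relative of kdr used as a standard vascular marker, it was 45.7%, 50.4% and 43.4% in homozygous and 97.5%, 110% and 93.5% in heterozygous libraries (-1.11, SE 0.09, adjusted p = 0.00635). The groups were well apart for all of them, with kdrl keeping the largest share of its heterozygous level.

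Both Tie receptor genes fell. The orphan receptor gene tie1 was at 20.0%, 12.1% and 9.74% in homozygous and 111%, 96.4% and 93.3% in heterozygous libraries (-2.91, SE 0.27, adjusted p = 0.00981). The angiopoietin receptor gene tie2, now called tek, was at 20.9%, 18.9% and 18.7% in homozygous and 106%, 96.1% and 98.2% in heterozygous libraries (-2.36, SE 0.15, adjusted p = 0.00385). The homozygous libraries were close together for tie2 and more spread for tie1, and neither gene overlapped between groups. A G-protein coupled receptor of endothelium, gpr182, was at 14.3%, 9.90% and 13.4% in homozygous and 87.9%, 124% and 92.0% in heterozygous libraries (-3.02, SE 0.22, adjusted p = 0.00499). The apelin receptor gene aplnrb was reduced less, to 58.4%, 64.4% and 52.5% in homozygous libraries, against 100%, 95.3% and 105% in heterozygous ones (-0.78, SE 0.08, adjusted p = 0.0248).

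In whole-embryo RNA, not every listed endothelial receptor gene moved, which leaves their level within endothelial cells unknown. Differences were 0.04 for nrp1a, a VEGF and semaphorin co-receptor, -0.01 for the sphingosine phosphate receptor gene s1pr1, -0.06 for aplnra and -0.02 for robo4, and none of these passed. The groups of ramp2, which codes for a partner of the calcitonin receptor-like receptors, did not overlap (-0.50, SE 0.10), but its adjusted p was 0.259. With each library left out in turn, the adjusted p of the receptors that fell ranged from 0.00569 to 0.163. The genes gpr182 and tie2 failed only without heterozygous replicate 1 (0.0522 and 0.0501), while kdr and aplnrb passed only without homozygous replicate 2. The gene flt1 failed without homozygous replicate 1 or any heterozygous one (up to 0.0789), tie1 without homozygous replicate 2 or any heterozygous one (up to 0.0920), and kdrl passed only without homozygous replicate 2 or heterozygous replicate 3 (up to 0.0728).

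Genes of a vascular ligand list, not all of them for ligands of these receptors, were mostly near their heterozygous level. Of its 23 genes, 16 were tested by limma, and 0 passed in either direction. Before adjustment, 1 was higher and 0 lower (p below 0.05), and the median was 0.04. The ligand genes vegfc (-0.34, SE 0.24) and figf, now vegfd (-0.29, SE 0.25), had a wide SE. The list holds tgfb1a, tgfb2 and tgfb3 but not the ligand gene tgfb1b, which fell (-1.41, adjusted p = 0.0138) and is described with the genes in no list. The VEGF gene vegfaa was at 112%, 116% and 123% in homozygous and 86.8%, 114% and 101% in heterozygous libraries (0.23, SE 0.10, adjusted p = 0.734). Those groups overlap. The gene angpt1, which codes for the activating ligand of the angiopoietin receptor, was at 152%, 125% and 124% in homozygous and 107%, 87.1% and 108% in heterozygous libraries (0.42, SE 0.11, adjusted p = 0.498), with groups apart but not past the threshold. Among 9 genes that feed back on ERK signalling, such as dusp6 and spry1, 0 passed in limma, 1 was lower before adjustment (p below 0.05) and the median was -0.04. The 9 do not include the ERK phosphatase gene dusp5, which was listed with the junction, lumen and surface genes and fell (-1.63, adjusted p = 0.0132).

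Of 18 endothelial transcription factor genes tested, 4 fell and none rose, 7 were lower before adjustment (p below 0.05), and the median was -0.12. They are etv2 itself, its ETS-family relatives erg and fli1b, and lmo2. The level of erg, which maintains endothelial identity, was 14.7%, 21.7% and 17.8% in homozygous and 114%, 115% and 76.3% in heterozygous libraries (-2.49, SE 0.23, adjusted p = 0.00981). That of fli1b was 43.3%, 34.2% and 27.6% in homozygous and 97.2%, 108% and 95.4% in heterozygous libraries (-1.54, SE 0.20, adjusted p = 0.0372). The gene lmo2, whose product bridges blood and endothelial transcription factors, was at 61.6%, 69.7% and 62.5% in homozygous and 94.2%, 99.8% and 106% in heterozygous libraries (-0.63, SE 0.07, adjusted p = 0.0294), the smallest fall of the 46. No pair of groups overlapped, and erg was reduced the most of these 3.

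The closest relative of fli1b, fli1a, was at 74.6%, 83.8% and 70.9% in homozygous and 101%, 99.2% and 99.6% in heterozygous libraries (-0.39, SE 0.07), and its adjusted p was 0.179. The SoxF genes sox7 and sox18 had separate groups without passing. For sox7 the homozygous libraries were at 46.9%, 60.8% and 39.9% and the heterozygous ones at 101%, 96.8% and 102% (-1.04, SE 0.19, adjusted p = 0.164). For sox18 they were at 56.5%, 46.1% and 46.3%, and the heterozygous ones at 117%, 91.3% and 93.3% (-1.02, SE 0.18, adjusted p = 0.138). Several other listed factors were nearer 0, at -0.08 for gata2a, -0.06 for nr2f2, 0.02 for mef2ca, -0.15 for elk3 and -0.07 for tal1. With 1 library left out, fli1b passed in no fit (adjusted p from 0.0622 to 0.204), lmo2 passed only without homozygous replicate 2 and erg only without homozygous replicate 2 or heterozygous replicate 3.

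Genes of endothelial junctions, lumen and cell surface made up the largest listed group that fell. Of 32 tested, 8 fell and none rose, 20 were lower and 1 higher before adjustment (p below 0.05), and the median was -0.39. The gene vsg1, now plvapb, codes for the protein of the diaphragms that span endothelial pores. It was at 12.5%, 13.7% and 13.2% in homozygous and 116%, 93.6% and 91.8% in heterozygous libraries (-2.93, SE 0.17, adjusted p = 0.00241). The endothelial claudin gene cldn5b was at 14.6%, 20.0% and 13.4% in homozygous and 94.3%, 101% and 105% in heterozygous libraries (-2.66, SE 0.20, adjusted p = 0.00499). Its relative cldn5a, which is also made in brain, was at 102%, 87.2% and 96.6% in homozygous and 104%, 99.8% and 96.5% in heterozygous libraries (-0.07). The groups were far apart for cldn5b and overlapped for cldn5a.

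Next in size was clec14a, an endothelial surface lectin gene, at 29.4%, 33% and 32.9% in homozygous and 107%, 96.9% and 96.3% in heterozygous libraries (-1.66, SE 0.15, adjusted p = 0.00981). The ERK phosphatase gene dusp5, which is active in endothelium, was at 36%, 33.7% and 27.9% in homozygous and 102%, 101% and 97.1% in heterozygous libraries (-1.63, SE 0.16, adjusted p = 0.0132). The gene RASIP1, whose mouse counterpart is needed for the vessel lumen, was at 30.8%, 37.1% and 31.8% in homozygous and 100%, 112% and 88.7% in heterozygous libraries (-1.59, SE 0.11, adjusted p = 0.00499). The homozygous libraries lay close together in all 3, and no groups overlapped. The other called members were sele, the E-selectin gene (-1.51), yrk, a Src-family kinase gene now called FGR (-1.09), and she, an adaptor gene (-1.03), with adjusted p from 0.00499 to 0.0214.

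Several classic endothelial genes had separate groups but did not pass. The level of cdh5, the gene of VE-cadherin, was 62.8%, 37.4% and 29.9% in homozygous and 105%, 98.9% and 95.8% in heterozygous libraries (-1.28, SE 0.25, adjusted p = 0.221). Homozygous replicate 1 was the high one, and the spread between the homozygous libraries was wide. The adhesion gene esama was at 45.8%, 47.6% and 49.9% in homozygous and 107%, 97.1% and 96.3% in heterozygous libraries (-1.07, SE 0.15), just short at an adjusted p of 0.051. One member ran the other way: vwf, the von Willebrand factor gene, was at 617%, 577% and 371% in homozygous and 112%, 57.8% and 154% in heterozygous libraries (2.35, SE 0.38, adjusted p = 0.0886). Its groups did not overlap either. Of the 8 that fell, vsg1 passed without each library in turn (adjusted p up to 0.0347), cldn5b and yrk failed without heterozygous replicate 1 or 2, and dusp5 and sele passed in none of these fits (lowest adjusted p 0.0526 and 0.0642). The gene clec14a passed only without homozygous replicate 2 (0.0430 to 0.0789), RASIP1 failed without homozygous replicate 1 or 3 or heterozygous replicate 1 (up to 0.0658), and she failed without any heterozygous library (up to 0.0685).

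Genes of veins and of scavenger endothelium fell in the highest proportion of any list, 4 of 7 tested, against 0.24% of all genes tested. All 7 were below 0, against 49.3% of all genes tested. Before adjustment, 5 were lower (p below 0.05), and the median was -1.45. The 7 include the row named stab1, whose current symbol is that of another gene, DOCK9. The mannose receptor gene mrc1a was at 12.1%, 14.1% and 7.37% in homozygous and 114%, 100% and 87.8% in heterozygous libraries (-3.21, SE 0.26, adjusted p = 0.00576). The hyaluronan scavenger receptor gene stab2 was at 12.6%, 12.1% and 10.1% in homozygous and 102%, 101% and 97.4% in heterozygous libraries (-3.11, SE 0.16, adjusted p = 0.00241). Replicates of stab2 were tight in both groups, and it passed without any 1 library (adjusted p up to 0.0347). The gene flt4, the receptor of VEGF-C, was at 37.2%, 40.4% and 32.6% in homozygous and 110%, 93.2% and 97.9% in heterozygous libraries (-1.45, SE 0.17, adjusted p = 0.0215). The endocytic adaptor gene dab2 was at 50.5%, 47.2% and 39.2% in homozygous and 97.9%, 98.8% and 103% in heterozygous libraries (-1.14, SE 0.10, adjusted p = 0.00981). With 1 library left out, mrc1a failed without heterozygous replicate 1 or 2 (highest adjusted p 0.0657), dab2 without any heterozygous one (up to 0.0960), and flt4 passed in no fit (0.0625 to 0.132).

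The lymphatic and venous hyaluronan receptor gene lyve1b stood at 12.0 normalized units in homozygous replicate 1 and at the floor of 1 in the other two, against 39.4, 60.2 and 49.2 units in heterozygous libraries. Absolute units are known for it because libraries at the floor fix its scale. It did not pass (adjusted p = 0.218), with groups apart but a wide spread among homozygous libraries. The venous Eph receptor gene ephb4a differed by -0.10. The row named stab1 in the file carries the current symbol DOCK9 and differed by -0.09, while the row named stab1l carries the current symbol stab1 and fell (-1.23, described with the genes in no list).

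The arterial and Notch list was split, with 2 water channel genes and an endothelial proteoglycan gene as its only called members. Of 17 arterial and Notch genes tested, 3 fell and none rose, 4 were lower and 2 higher before adjustment (p below 0.05), and the median was -0.02. The largest fall of any gene was aqp8a.1, a water channel gene, at 2.55%, 1.14% and 0.585% in homozygous and 101%, 93.6% and 105% in heterozygous libraries (-6.39, SE 0.47, adjusted p = 0.00499), or 83.8-fold lower. Its lowest homozygous library may stand at the floor of 1, in which case the fall is understated. A further water channel gene, aqp1a.1, which is also made in red cells, was at 44.3%, 61.0% and 48% in homozygous and 105%, 101% and 94.3% in heterozygous libraries (-0.98, SE 0.12, adjusted p = 0.0372). The gene ESM1, an endothelial proteoglycan gene, was at 31.4%, 22.4% and 35.6% in homozygous and 102%, 86.6% and 113% in heterozygous libraries (-1.78, SE 0.22, adjusted p = 0.0294). All 3 had separate groups.

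In whole-embryo RNA, no Notch component passed in either direction. The Notch ligand gene dll4, used in arterial endothelium and tip cells, was at 74.7%, 76.5% and 69.4% in homozygous and 111%, 89.2% and 101% in heterozygous libraries (-0.44, SE 0.09, adjusted p = 0.238), with groups apart. Differences were -0.00 for the arterial ephrin gene efnb2a, -0.15 for hey2, a Notch target, 0.02 for notch3 and -0.04 for notch1b, none of which passed. The ligand gene jag1b was at 117%, 109% and 114% in homozygous and 96.6%, 103% and 100% in heterozygous libraries (0.18, SE 0.05, adjusted p = 0.555), and dlc differed by -0.12 (adjusted p = 0.757), both with groups apart. Without heterozygous replicate 1 or 2, aqp8a.1 did not pass (highest adjusted p 0.0634), aqp1a.1 passed only without homozygous replicate 2 (up to 0.303) and ESM1 in no fit (0.0752 to 0.175).

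Leukocyte genes fell as well. Of 21 neutrophil and general leukocyte genes tested, 2 fell and none rose, 12 were lower before adjustment (p below 0.05), and the median was -1.29. Of 11 macrophage genes, 1 fell, 5 were lower before adjustment (p below 0.05), and the median was -0.38. The gene of serglycin, srgn, a granule proteoglycan, was at 2.29%, 8.70% and 6.68% in homozygous and 107%, 92.1% and 101% in heterozygous libraries (-4.29, SE 0.46, adjusted p = 0.0161). The lysozyme gene lyz was at 15.9%, 9.82% and 15.3% in homozygous and 105%, 88.3% and 108% in heterozygous libraries (-2.90, SE 0.23, adjusted p = 0.00551). The macrophage gene mfap4 was at 8.44%, 1.37% and 2.73% in homozygous and 102%, 85.0% and 116% in heterozygous libraries (-4.98, SE 0.59, adjusted p = 0.0248), and its lowest library may stand at the floor. No group of these overlapped.

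Many more leukocyte genes had separate groups without passing. The neutrophil peroxidase gene mpx was at 1.90%, 11.7% and 22.7% in homozygous and 91.1%, 111% and 98.4% in heterozygous libraries (-3.65, SE 0.80, adjusted p = 0.273). The macrophage regulator gene irf8 was at 10.1%, 33.6% and 19.7% in homozygous and 130%, 88.9% and 86.9% in heterozygous libraries (-2.41, SE 0.42, adjusted p = 0.126). The myeloid regulator gene spi1 was at 23.4%, 44.2% and 27% in homozygous and 123%, 91.8% and 88.8% in heterozygous libraries (-1.72, SE 0.27, adjusted p = 0.0805). The homozygous libraries of mpx and irf8 lay severalfold apart, with a wide SE, while those of spi1 were closer together. None of the 3 overlapped between groups. The pan-leukocyte actin-bundling gene lcp1 was at 37.1%, 42.6% and 30.3% in homozygous and 123%, 95.6% and 84.8% in heterozygous libraries (-1.46, SE 0.21, adjusted p = 0.0594).

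Homozygous replicate 2 was less reduced than the others over the leukocyte lists together. The median level of their 32 genes was 40.7%, 72.6% and 44.4% in homozygous replicates 1, 2 and 3, and 103%, 93.8% and 99.0% in heterozygous libraries. Single genes differed in this: of the called ones, srgn was least reduced in homozygous replicate 2, but lyz and mfap4 were lowest there. Over the 96 genes of the 5 endothelial lists the medians were even, at 86.3%, 85.1% and 84.6% in homozygous and 101%, 99.8% and 99.2% in heterozygous libraries. Some rows below the level minimum, which were not tested, have a scale fixed by libraries at the floor. The macrophage gene mpeg1 was at 1, 1 and 1 normalized unit in homozygous and 11.3, 8.05 and 6.22 units in heterozygous libraries. The macrophage gene havcr1 was at 1, 3.90 and 1 unit in homozygous and 15.9, 17.7 and 11.5 units in heterozygous libraries. Other macrophage rows overlapped. The gene cd74a was at 1, 5.85 and 3.23 units in homozygous and 1.88, 1 and 4.15 units in heterozygous libraries. For zgc:193682 the units were 1, 1.04 and 3.40 in homozygous and 1, 4.02 and 1 in heterozygous libraries. The gene plek, made in platelets and leukocytes, was in the thrombocyte list. It was at 1, 1 and 1 unit in homozygous and 5.64, 7.04 and 7.51 units in heterozygous libraries.

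Several listed leukocyte genes behaved otherwise, with groups overlapping. Among macrophage genes, differences were 0.41 for grna, -0.20 for ctssb.1, -0.14 for slc7a7 and -0.05 for c1qa. In the neutrophil and leukocyte list they were 0.19 for both cebpa and cebp1, 0.05 for arhgdig and -0.01 for mmp9. The receptor gene csf1ra, which zebrafish pigment cells also use, was at 109%, 87.9% and 92.8% in homozygous and 104%, 93.7% and 103% in heterozygous libraries (-0.05), with groups overlapping. The 3 leukocyte genes that fell kept their direction with any library left out. Without heterozygous replicate 1 or 2 none of them passed, and lyz passed in the other 4 fits (adjusted p up to 0.0657 over all 6). Adjusted p reached 0.132 for srgn and 0.183 for mfap4, both of which passed only without homozygous replicate 1 or 2. Both also missed the threshold when 1 prior spread was used for all level classes (0.0632 for srgn and 0.0946 for mfap4).

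Blood progenitor regulators did not move together. Of 8 tested, 1 fell (lmo2, above), none rose, and the median was 0.01. The gene tal1, a master regulator of blood formation, was at 94.6%, 102% and 90.2% in homozygous and 94.8%, 114% and 92.4% in heterozygous libraries (-0.07, SE 0.10). The progenitor gene drl was at 137%, 183% and 152% in homozygous and 89.2%, 116% and 96.6% in heterozygous libraries (0.64, SE 0.19, adjusted p = 0.528). The tal1 groups overlapped, while those of drl did not. Of 6 thrombocyte genes tested with limma, 0 passed in either direction, 0 did so before adjustment (p below 0.05), and the median was 0.10. The gene plek of that list, described above, was below the level minimum and is not among the 6.

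Among red cell genes a globin rose and a water channel gene fell, and the others did not pass. Of 11 globin genes tested, 1 rose and none fell. All 11 were above 0, while 49.3% of all genes tested were below 0. Before adjustment, 8 were higher (p below 0.05), against 3.13% of all genes tested, and the median was 0.44. The globin row named hbaa1, whose current symbol is si:ch211-5k11.8, was at 756%, 662% and 650% in homozygous and 107%, 57.0% and 165% in heterozygous libraries (2.78, SE 0.36, adjusted p = 0.0366). Its groups were far apart, but it passed only without heterozygous replicate 3 (adjusted p from 0.0496 to 0.209 over the 6 fits). Among the abundant embryonic globins, hbae3 was at 129%, 161% and 136% in homozygous and 105%, 112% and 85.2% in heterozygous libraries (0.50, SE 0.12, adjusted p = 0.409). Zebrafish globin genes are near copies of each other, and how reads shared between them were counted is not stated in the sources used here, so values of single globin genes are uncertain.

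Of 34 genes of heme synthesis, iron uptake and the red cell membrane, 1 fell (aqp1a.1, above) and none rose. Above 0 were 31 and below 0 were 3, while 49.3% of all genes tested were below 0. Before adjustment, 17 were higher and 2 lower (p below 0.05), and the median was 0.22. The heme synthesis gene urod was at 143%, 138% and 125% in homozygous and 100%, 100% and 99.9% in heterozygous libraries (0.44, SE 0.06, adjusted p = 0.0692). The transferrin receptor gene tfr1a, which takes up iron, was at 229%, 199% and 154% in homozygous and 109%, 102% and 89.6% in heterozygous libraries (0.94, SE 0.15, adjusted p = 0.116). The groups were separate for both, although neither passed. The red cell regulator gata1a was at 118%, 96.4% and 102% in homozygous and 97.4%, 107% and 95.8% in heterozygous libraries (0.07), with groups overlapping. Heterozygous replicate 3 was the lowest library over the lists, with a median of 89.0% for the globins and 94.0% for the heme and red cell genes. No homozygous library had a median below 112%.

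**Figure D2:**
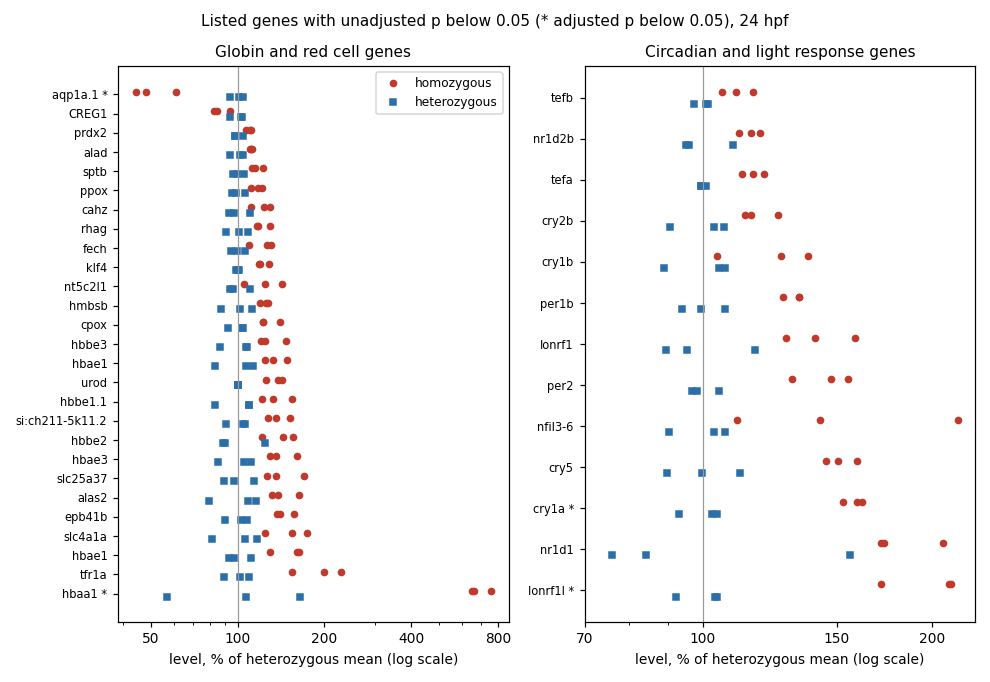
Levels of the globin, heme and red cell genes (left) and of the circadian and light response genes (right) with p below 0.05 before adjustment at 24 hpf, in each homozygous and heterozygous library, as a percentage of the geometric mean of the heterozygous libraries (log axis). Each point is 1 library and an asterisk marks an adjusted p below 0.05; most homozygous points lie above 100%, with hbaa1 at 650% or more and aqp1a.1 and CREG1 below 100%.

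Clock and light response genes gave 2 of the 4 rises. Of 34 tested, 2 rose and none fell, and the median was 0.20. Above 0 were 27 and below 0 were 7, while 49.3% of all genes tested were below 0. Uneven signs were also seen in lists with no call, described below. Before adjustment, 13 (38.2%) were higher (p below 0.05), against 3.13% of all genes tested. The cryptochrome gene cry1a, a light-induced repressor of the clock, was at 153%, 159% and 161% in homozygous and 103%, 93.0% and 104% in heterozygous libraries (0.66, SE 0.06, adjusted p = 0.0148). The gene lonrf1l was at 212%, 210% and 171% in homozygous and 104%, 92.4% and 104% in heterozygous libraries (0.98, SE 0.10, adjusted p = 0.0184). The period gene per2, also induced by light in zebrafish, was at 155%, 147% and 131% in homozygous and 105%, 96.8% and 98.4% in heterozygous libraries (0.53, SE 0.08, adjusted p = 0.0736). These groups were all separate, and homozygous replicate 3 was the lowest homozygous library for lonrf1l and per2.

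Of its relatives, per1b was at 134%, 128% and 134% in homozygous and 93.8%, 107% and 99.6% in heterozygous libraries (0.40, SE 0.06, adjusted p = 0.118), with groups apart. The gene per1a was at 105%, 110% and 92.3% in homozygous and 105%, 57.6% and 165% in heterozygous libraries (0.03, SE 0.36), so that its groups overlapped. With 1 library left out, cry1a passed in no fit (adjusted p from 0.0650 to 0.122) and lonrf1l only without homozygous replicate 3 (0.0321 to 0.135). The clock time and lighting at which each batch was frozen are not stated in the sources used here, and their part in these values was not tested.

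Of the called genes, 18 belonged to no list. The rule for named genes picked 3 of them by size. The interleukin 13 decoy receptor gene il13ra2 was at 8.07%, 2.19% and 6.88% in homozygous and 81.8%, 103% and 118% in heterozygous libraries (-4.34, SE 0.47, adjusted p = 0.0179). The organic anion transporter gene slc22a7b was at 3.45%, 6.73% and 13.8% in homozygous and 65.0%, 118% and 131% in heterozygous libraries (-3.87, SE 0.50, adjusted p = 0.0366). These are the third and the fifth largest fall, and in both the homozygous libraries lay severalfold apart but well below every heterozygous one. The growth factor binding protein gene igfbp5a rose, at 299%, 233% and 325% in homozygous and 93.9%, 98.3% and 108% in heterozygous libraries (1.5, SE 0.18, adjusted p = 0.0283). Each of the 3 passed in only 1 of the 6 fits that leave out a library: il13ra2 without homozygous replicate 2 (adjusted p from 0.00569 to 0.135), slc22a7b without homozygous replicate 3 (0.0467 to 0.221) and igfbp5a without homozygous replicate 2 (0.0466 to 0.162).

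The other 15 were all lower and are named here after their values were seen. Among them are genes known from endothelium. A row with no gene symbol of its own, CABZ01018247.1, carries the current symbol pecam1a, the gene of the endothelial adhesion molecule PECAM1, and was at 20.6%, 22.6% and 9.99% in homozygous and 109%, 96.6% and 94.7% in heterozygous libraries (-2.58, SE 0.31, adjusted p = 0.0268). The surface lectin gene CD93 was at 24.4%, 11.3% and 18.6% in homozygous and 115%, 106% and 81.9% in heterozygous libraries (-2.53, SE 0.30, adjusted p = 0.0248). The scavenger receptor gene stab1l, now stab1, was at 47.9%, 39.5% and 40.9% in homozygous and 107%, 102% and 92.4% in heterozygous libraries (-1.23, SE 0.16, adjusted p = 0.0372). No group overlapped in these 3.

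The transforming growth factor gene tgfb1b had libraries close together within each group, at 37.7%, 37.4% and 38.2% in homozygous and 97.6%, 99.2% and 103% in heterozygous libraries (-1.41, SE 0.14, adjusted p = 0.0138). It is a ligand gene and lay apart from its relatives tgfb1a, tgfb2 and tgfb3, which differed by -0.03, 0.11 and 0.03. Further members were the matrix and adhesion genes col8a2 (-1.69) and itga10 (-1.07), the scavenger receptor gene scarf1 (-1.56), the Rab effector gene micall2a (-1.90) and the transporter gene abcb9 (-1.49). Genes better known from blood cells were INPP5D, the lipid phosphatase SHIP1 (-1.28), myo1f, a leukocyte myosin (-1.23), ccdc88b (-1.38) and f13a1b, for a clotting factor subunit (-1.03). The remaining members were prcp, a peptidase gene (-0.98), and si:ch1073-429i10.1 (-1.76). Their adjusted p lay between 0.00576 and 0.047. With 1 library left out, these 15 genes had adjusted p between 0.00657 and 0.232, and 9 of them passed in no fit.

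Lists for other tissues gave no call by limma, although some had more genes at a low p before adjustment than the background of 3.9% lower and 3.13% higher. The medians of the 19 lists with no call ran from -0.27 to 0.16, against 0.00 for all genes tested, and the 19 include the vascular ligand, ERK feedback and thrombocyte lists described above. Signs were uneven in some of the 19, while 49.3% of all genes tested were below 0. Above 0 were 16 of 19 heart, 16 of 19 neural crest and pigment and 19 of 24 cell cycle genes. Below 0 were 41 of 53 skeletal muscle and 9 of 10 lens genes. The myogenic regulators were even, with 13 on each side. Of 19 heart genes, 4 (21.1%) were higher and 0 lower before adjustment (p below 0.05), and the median was 0.16. Of these 4, myl7, tnnt2a and cmlc1 had overlapping groups, and vmhc did not. The median level of the heart list was 104% in homozygous replicate 3 and 113% in heterozygous replicate 1. The ventricular myosin gene vmhc was at 139%, 163% and 109% in homozygous and 106%, 92.5% and 102% in heterozygous libraries (0.44, SE 0.15, adjusted p = 0.642). Of 19 neural crest and pigment genes, 5 (26.3%) were higher, 0 lower and the median was 0.12. The melanin enzyme gene tyrp1b was at 117%, 117% and 121% in homozygous and 96.2%, 105% and 98.5% in heterozygous libraries (0.24, SE 0.06, adjusted p = 0.335). Of 21 kidney genes, 3 (14.3%) were higher, 0 lower and the median was 0.06. All 3, cdh17, atp1a1a.4 and hnf1ba, had overlapping groups.

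Muscle, nerve and skin differed less. Of 53 skeletal muscle genes, 2 were lower and 1 higher before adjustment (p below 0.05), with a median of -0.04, and the actin gene acta1a was at 94.0%, 99.0% and 101% in homozygous and 97.2%, 106% and 96.8% in heterozygous libraries. Of 26 myogenic and paraxial mesoderm regulators, 1 was lower and 1 higher, with a median of -0.00. Of 39 neural genes, 1 was lower and 0 higher, with a median of -0.04. Of 37 epidermis and ionocyte genes, 1 was lower and 1 higher, with a median of 0.05. Of 19 sclerotome, fibroblast and mural cell genes, 1 was lower and 1 higher, with a median of 0.07. These counts are near the background shares of 3.9% lower and 3.13% higher among all genes tested.

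The remaining tissue lists held few genes with p below 0.05 before adjustment, but in some short lists the share exceeded the background. Among 32 endoderm, yolk and liver genes, 1 was lower and 0 higher (median 0.10). Among 16 notochord and floor plate genes, 0 were lower and 1 higher (0.01), and among 5 hatching gland genes, 0 in either direction (0.03). Among 10 lens genes, 1 (10%) was lower and 1 (10%) higher (-0.135). The alpha-crystallin gene cryaa, below the level minimum, was at 5.13, 9.75 and 5.99 normalized units in homozygous libraries and at the floor of 1 in all heterozygous libraries. Among 6 germ cell genes, 2 (33.3%) were lower and 0 higher (-0.27), against 3.9% lower among all genes tested.

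Stress and growth lists had no call either. Among 20 hypoxia response genes, 0 were lower and 1 higher before adjustment (p below 0.05) (median 0.03). Among 24 cell cycle genes, 0 were in either direction (0.05). Among 16 interferon, inflammation and heat shock genes, 2 (12.5%) were lower and 0 higher (-0.07). Both are heat shock genes with groups apart: hsp70l was at 67.6%, 60.6% and 42.9% in homozygous and 89.5%, 159% and 70.2% in heterozygous libraries (-0.84, SE 0.33, adjusted p = 0.686), and dnajb1b differed by -0.24 (SE 0.07, adjusted p = 0.572). None of the 19 lists had a median further from 0 than the germ cell list.

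**Figure D3:**
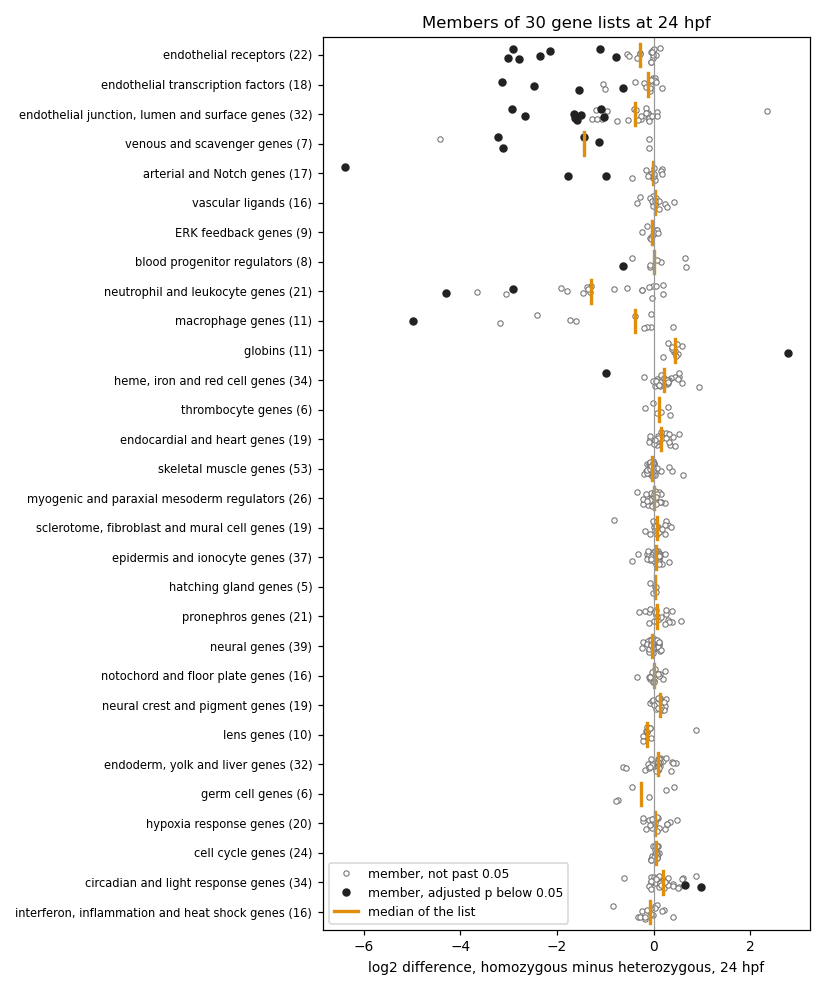
Log2 difference, homozygous minus heterozygous, of each tested member of the 30 gene lists at 24 hpf; each point is 1 gene, filled where the adjusted p is below 0.05, an orange bar marks the list's median, and the number tested is in brackets. The filled points lie in the endothelial, leukocyte and blood progenitor lists to the left of 0, and in the globin and circadian lists to the right, with aqp1a.1 also shown in the heme list.

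The allele sits on chromosome 16, and the place of the called genes relative to it was counted. By the RefSeq annotation of assembly GRCz12tu, a chromosome was found for 14074 of the genes tested and for 47 of the 50 called. Of the genes with a chromosome, 640 lay on chromosome 16, which is 4.55%, and 5 of the 47 called did: etv2, fli1b, RASIP1, itga10 and she. Within 5 Mb of etv2 there were 118 tested genes, of which 2 were called, etv2 and its neighbour fli1b, and the median difference of the 118 was 0.01. The other 42 called genes with a chromosome lay on other chromosomes. Whether linkage plays a part in any of the 5 was not tested.

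The same genotypes had also been sequenced at the 15-somite stage. Of the 46 genes that fell at 24 hpf, 37 were tested at 15 somites, all 37 were lower there, and 31 passed, against 3.38% of all genes tested at that stage. Both of the rises tested there, cry1a and lonrf1l, rose there too, against 0.686% of all genes. A limma interaction tested the change of the difference between the stages over 17725 genes, and 628 of them passed, which is 3.54%, with 163 (0.92%) lower and 465 (2.62%) higher. Leaving out 1 of the 12 libraries gave from 34 to 168 lower and from 163 to 540 higher, with the fewest in both directions without heterozygous replicate 2 at 24 hpf, and 1 prior spread for all genes gave 58 and 205. Stage, raising temperature and batch cannot be told apart in it. Of the called genes, 39 were in that test and 12 passed, and etv2 was not among them (-3.15 at 24 hpf, -2.83 at 15 somites, adjusted p = 0.627).

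The 12 changed in both senses. The fall was smaller at 24 hpf for 6 of them. For clec14a it was -1.66 at 24 hpf and -4.73 at 15 somites (adjusted p of the change 0.000587), and for RASIP1 it was -1.59 and -4.22 (0.0032). The gene gpr182 was at -3.02 and -6.37 (0.0213), and dusp5, she and lmo2 also had the smaller fall at 24 hpf. It was larger at 24 hpf for 5 genes, namely aqp8a.1 at -6.39 and -2.50 (0.00693), stab2 at -3.11 and -1.85 (0.0126), vsg1 at -2.93 and -1.54 (0.0287), stab1l at -1.23 and -0.13 (0.0279) and aplnrb at -0.78 and -0.30 (0.0279). The rise of cry1a was smaller at 24 hpf, at 0.66 and 1.28 (0.0482). With each of the 12 libraries left out in turn, the change of aqp8a.1, stab2, clec14a, RASIP1 and she passed in every fit. That of gpr182 failed only without homozygous replicate 1 at 24 hpf (0.0531), and that of lmo2 passed in 8 fits. Those of stab1l, dusp5, aplnrb, vsg1 and cry1a passed in 5, 4, 4, 3 and 1, with adjusted p up to 0.104, and dusp5, aplnrb, lmo2 and cry1a also failed with 1 prior for all genes.

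**Figure D4:**
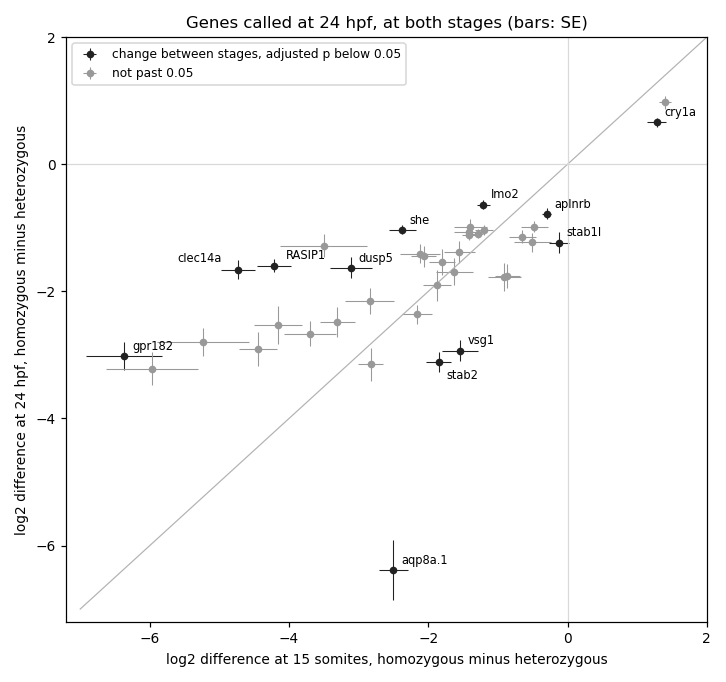
Log2 difference, homozygous minus heterozygous, at 24 hpf (vertical) against that at 15 somites (horizontal) for the genes called at 24 hpf that were tested at both stages, with bars of 1 SE; black points passed the test of the change between stages. Of the genes that fell, those above the diagonal, such as clec14a and RASIP1, fell less at 24 hpf than at 15 somites. Those below it, such as aqp8a.1 and stab2, fell more. The gene cry1a also lies below the diagonal, but it rose at both stages and rose less at 24 hpf.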

How the data were processed

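Per the labels, RNA of whole-embryo batches was made into NEBNext Ultra libraries. The submitters' processing notes name DESeq and Zv9, with aligner, counter, annotation release, strand handling and tool version not given in the sources used here. Log2 normalized values were deposited by the authors, 1 table per stage. The numbers show a floor at 1 before the log and a subtraction of every gene's median across its 6 libraries.

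Total depth is unknown. Steps between low values gave relative depths, but only 46.5% to 55.1% of low values came out whole within 0.01 read, so no count test was run. The binary precision of the stored numbers placed each median in a class (below 4, 4 to 16, 16 to 256, 256 and above). On simulated data the placing was right for 93.8% of rows, and 1.58% of rows that passed lay below 16. Of rows known to lie below 16, 2.39% were placed above by this step alone.

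Rows at 16 or above were tested with limma 3.58.1 in R 4.3.3, two-sided, without a replicate block, the prior spread estimated within level classes, and Benjamini-Hochberg adjustment over all 19175 rows, 60.4% of them at 256 or above. On simulated data, with 50 genes set at each of -3, -1.5, 1.5 and 3, it recovered 98% at -3 and 86% at -1.5. There were 8 false calls among 191 calls there, while the measured data gave 50 calls. Of the 46 measured falls, 34 lay in the class from 16 to 256. Recovery in that class alone, or with as few as 50 calls, was not tested. The p-values measure the spread between batches of embryos. The replicate numbers share no stated clutch, so same-numbered libraries were not treated as pairs. Their deviations from the group means correlated at 0.108, 0.0163 and 0.00234, and those of unlike-numbered libraries at -0.099 to 0.085. With 3 libraries a group these values depend on each other and cannot show whether a clutch was shared. With the replicate number as a block, there were 16 falls and 0 rises. Leaving out a library leaves 2 in its group.

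The named genes are etv2, the 12 largest called falls and rises with a descriptive symbol, the called members and first 3 tested members of each of 30 gene lists, and called genes within 5 Mb of etv2; other genes were named after their values were seen. A further gene list is not reported here. Members and lists were chosen with earlier results of these data known. Current symbols came from RefSeq, whose assembly differs from Zv9, so no coordinates are given. Current symbols were found for 15216 of the genes tested. Alternatives were the level minimum, the prior, scaling, the block, a fit over all 12 libraries and leaving out each library.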

Additional observations from a re-analysis of the deposited data

Results flagged for a closer look

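These results are listed because the difference between homozygotes and heterozygotes itself changed between the stages, by the limma interaction over both stages. Each value is the 24 hpf difference minus the 15-somite difference on the log2 scale; a positive value for a gene that fell means a smaller fall at 24 hpf. Stage, raising temperature and batch differ together between the 2 sets of libraries and cannot be told apart.

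Of the genes called at 24 hpf, the change was 3.08 for clec14a, 2.62 for RASIP1, 3.35 for gpr182, 1.48 for dusp5, 1.35 for she and 0.57 for lmo2, all with the smaller fall at 24 hpf. It was -3.89 for aqp8a.1, -1.26 for stab2, -1.39 for vsg1, -1.11 for stab1l and -0.48 for aplnrb, all with the larger fall at 24 hpf. It was -0.62 for cry1a, whose rise was smaller at 24 hpf.

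The other genes did not pass at 24 hpf. The change was 1.54 for tal1 (-0.07 at 24 hpf and -1.60 at 15 somites, adjusted p = 0.000408), a master regulator of blood formation. It was 3.48 for cdh5 (-1.28 and -4.76, adjusted p = 0.0257) and 0.70 for fli1a (-0.39 and -1.10, adjusted p = 0.0151), both endothelial genes. Among clock genes it was -0.66 for per2 and -0.40 for per1b. For the yolk and intestine lipid transport genes it was 1.85 for fabp2 and 1.45 for apoa1a, which were at 0.12 and 0.04 at 24 hpf and at -1.74 and -1.42 at 15 somites. The keratin genes krt4 and krt8 had changes of 0.40 and 0.39, the hatching gland list's wu:fa26c03 0.997, the neuronal gene elavl3 -0.51 and the sodium pump gene atp1a1a.4 0.91, with adjusted p from 0.0158 to 0.0406. With each of the 12 libraries left out in turn, the change passed in every fit for tal1, per2, fli1a and atp1a1a.4, in 11 for fabp2, in 6 for cdh5, apoa1a and krt4, in 4 for elavl3, in 3 for per1b and wu:fa26c03 and in 2 for krt8.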

How the results depend on the processing

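Falls and rises at 24 hpf numbered 46 and 4. They were 52 and 5 with no filter on low levels, 37 and 3 with 1 prior for all genes, 50 and 5 after quantile normalization, 46 and 4 with libraries centred on their median, 57 and 9 over all 12 libraries, and 10 and 2 in the highest level class, where 14 of the 50 were left to test and 12 kept their call. Of the 50 called genes, 49 kept their call with no filter, 34 with 1 prior, all 50 under quantile normalization and under centring, and 45 over all 12 libraries. Leaving out each library gave 2 to 31 falls and 0 to 7 rises. The etv2 difference ranged from -3.31 to -2.85 in these fits (adjusted p from 0.00569 to 0.0685). With the replicate number as a block there were 16 falls and 0 rises, and etv2 stayed at -3.15 (adjusted p = 0.0414); the labels do not say that a number pairs the libraries. For the change between stages, 163 genes were lower and 465 higher, 58 and 205 with 1 prior and 261 and 538 after quantile normalization; leaving out each library gave 34 to 168 lower and 163 to 540 higher. The causes of these changes were not tested. Fits that left out a library or a level class also held fewer libraries or genes.

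Some genes with no call turned sign when 1 library was left out, over these ranges: acta1a -0.052 to 0.016, apoa1a -0.071 to 0.20, cryba2b -0.18 to 0.016, csf1ra -0.15 to 0.011, efnb2a -0.026 to 0.027, fabp2 -0.022 to 0.29, foxd3 -0.14 to 0.0015, gata1a -0.012 to 0.14, he1a -0.22 to 0.11, he1b -0.21 to 0.26, irf7 -0.034 to 0.15, myod1 -0.10 to 0.00097, ntla -0.020 to 0.075, pdgfrb -0.048 to 0.57, per1a -0.36 to 0.40, pfkfb3 -0.044 to 0.068, stat1a -0.049 to 0.078, tal1 -0.12 to 0.030 and wu:fa26c03 -0.19 to 0.18. Low genes were measured less precisely, with a median SE of 0.21 in the lower and 0.07 in the higher level class tested. Several genes that turned sign had a small SE, such as 0.05 for efnb2a, 0.06 for acta1a and 0.07 for myod1. Their differences over all 6 libraries were near 0, at -0.0013, -0.03 and -0.05.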
